A study of Mus musculus with 12 samples.

Results

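Chromatin accessibility at 37 extracellular matrix and protease genes was compared between microglia and monocyte-derived macrophages of mouse brain tumours, with and without lipid load. The members are basement membrane components, matrix glycoproteins, cross-linking enzymes, matrix metalloproteinases and their tissue inhibitors, ADAM and ADAMTS proteases, the urokinase system, and a group of surface proteins (syndecans, neuropilins and Hbegf). For each member, counts were summed over the accessible regions that overlap its mm10 gene span, extended by 5 kb at each end, and this sum is called a locus. Of the 37 members 36 had a region and were tested, among 16304 protein-coding genes with a region and 15552 tested. The lysyl oxidase gene Lox had no region, so no level is given for it.

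ATAC-seq, in which the Tn5 transposase inserts sequencing adapters into open DNA, was run on nuclei of sorted cells in 4 groups of 3 libraries. The groups were lipid-laden microglia (LL-MG), microglia without lipid load (MG), lipid-laden monocyte-derived macrophages (LL-MDM) and monocyte-derived macrophages without lipid load (MDM). All 12 libraries came from brain tumours of mice labelled with an Ink4a/Arf knockout and PDGFB. In that model PDGFB is expressed in Nestin-positive progenitor cells, so the macrophages themselves are not the cells in which PDGFB is driven. The Ink4a/Arf knockout is labelled for the mice, so the macrophages may carry it as well. Microglia are the resident macrophages of the brain, and monocyte-derived macrophages enter it from the blood. The comparisons ask how accessibility at matrix genes differs between the lineages and with lipid load.

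The extracellular matrix is a network of collagens, laminins, glycoproteins and proteoglycans that cells both build and cut. Basement membranes, which in the brain surround blood vessels, rest on sheets of type IV collagen and laminin joined by nidogen and perlecan. Metalloproteinases of the MMP, ADAM and ADAMTS families and the urokinase system cut matrix and surface proteins, TIMP proteins inhibit many of these enzymes, and tumour macrophages are known as a source of several of them.

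For 8 of the 12 samples the title names another group than the library name, and for 4 the group is the same; the groups here follow the library names. Region totals ranged from 1162969 counts (LL-MDM 1) to 18938222 counts (MDM 2). Sall1, the defining transcription factor of microglia, had 63.4, 85.0 and 64.6 CPM (counts scaled to a common library total) in LL-MG and 71.4, 37.7 and 50.2 CPM in MG, against 11.5, 9.42 and 5.94 CPM in LL-MDM and 0.830, 1.02 and 0.471 CPM in MDM. Itga4, an integrin of monocyte-derived cells, averaged 48.2 CPM in LL-MG, 42.0 in MG, 79.8 in LL-MDM and 117 in MDM. Both genes separate the library-named lineages. With the groups set by title edgeR called 0 members and 0 loci between lineages. At an unadjusted p under 0.05 it called 61 loci in MG against MDM, 106 in LL-MG against LL-MDM, and 0 members. By library name these title comparisons each stay within a lineage. The title groups MG and MDM hold only MDM and LL-MDM libraries, and the title groups LL-MG and LL-MDM only microglia libraries. The 8 microglia markers summed to 606 to 666 CPM in LL-MG, 380.4 to 616 in MG, 386 to 413 in LL-MDM and 322 to 343 in MDM. Libraries MG 2 and MG 3 stand apart from MG 1, and called values that move by over 1.5 times or lose their call without both are named beside MG against MDM and LL-MG against MG. The titles number 3 mice, but no library could be matched to one of them, so the p-values here reflect library-to-library spread alone, which may be technical. In sorted bulk cells, fewer cells with an open locus and less accessibility per cell cannot be told apart.

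Promoter windows are shown for 6 of 8 members whose promoter region differed between groups by at least 1 log2 unit, in the direction of the locus call. Of the windows shown, 3 are on the microglial side and 3 on the MDM side. Those of Mmp8 (lower in LL-MG than in LL-MDM) and Adam8 (higher in LL-MDM than in MDM) are not shown. All windows are RefSeq sequences of GRCm38.p6, 250 bases before to 50 bases after a transcription start, which the table held for 25 of the 37 members (27 windows). Capitals mark matches, on either strand, to the GC box (GGGCGG), the TATA box (TATAAA), the AP-1 motif (TGANTCA) and the RUNX motif (TGTGGT); no motif's letters contain those of another. Adamts1 (chr16:85803064-85803363, minus strand), Timp2 (chr11:118355362-118355661, minus strand) and Lama5 (chr2:180225810-180226109, minus strand) had more accessible promoters in MG than in MDM.
Adamts1 promoter: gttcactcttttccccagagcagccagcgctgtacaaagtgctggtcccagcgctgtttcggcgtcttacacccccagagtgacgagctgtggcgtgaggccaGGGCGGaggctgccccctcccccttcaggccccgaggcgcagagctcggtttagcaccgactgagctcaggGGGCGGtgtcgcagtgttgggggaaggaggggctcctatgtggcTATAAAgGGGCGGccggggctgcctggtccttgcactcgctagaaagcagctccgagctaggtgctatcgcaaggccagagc
Timp2 promoter: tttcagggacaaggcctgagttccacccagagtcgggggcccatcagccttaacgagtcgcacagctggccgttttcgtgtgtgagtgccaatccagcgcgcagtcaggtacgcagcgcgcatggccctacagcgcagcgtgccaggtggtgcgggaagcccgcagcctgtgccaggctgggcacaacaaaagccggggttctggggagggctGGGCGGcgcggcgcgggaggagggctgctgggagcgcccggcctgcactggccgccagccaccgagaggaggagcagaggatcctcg
Lama5 promoter: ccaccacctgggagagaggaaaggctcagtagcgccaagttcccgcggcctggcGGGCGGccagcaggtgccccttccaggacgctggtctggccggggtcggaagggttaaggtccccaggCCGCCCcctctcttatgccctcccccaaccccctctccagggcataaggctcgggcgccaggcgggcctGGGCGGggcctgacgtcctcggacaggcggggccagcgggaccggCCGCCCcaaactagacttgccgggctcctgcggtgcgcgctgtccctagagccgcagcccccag
Mmp13 (chr9:7272264-7272563, plus strand), Mmp14 (chr14:54431348-54431647, plus strand) and Timp1 (chrX:20869916-20870215, plus strand) had less accessible promoters in LL-MG than in LL-MDM.
Mmp13 promoter: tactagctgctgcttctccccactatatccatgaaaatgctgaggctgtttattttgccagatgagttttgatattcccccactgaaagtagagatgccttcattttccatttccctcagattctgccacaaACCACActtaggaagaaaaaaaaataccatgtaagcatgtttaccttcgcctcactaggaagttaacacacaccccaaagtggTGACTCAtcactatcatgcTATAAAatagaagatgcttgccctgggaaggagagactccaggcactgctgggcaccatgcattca
Mmp14 promoter: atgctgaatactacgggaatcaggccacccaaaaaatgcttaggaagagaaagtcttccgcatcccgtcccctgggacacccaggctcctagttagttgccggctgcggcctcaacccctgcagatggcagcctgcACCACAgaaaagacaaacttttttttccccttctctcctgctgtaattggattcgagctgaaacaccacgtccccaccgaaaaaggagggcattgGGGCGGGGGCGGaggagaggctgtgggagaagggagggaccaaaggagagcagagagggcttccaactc
Timp1 promoter: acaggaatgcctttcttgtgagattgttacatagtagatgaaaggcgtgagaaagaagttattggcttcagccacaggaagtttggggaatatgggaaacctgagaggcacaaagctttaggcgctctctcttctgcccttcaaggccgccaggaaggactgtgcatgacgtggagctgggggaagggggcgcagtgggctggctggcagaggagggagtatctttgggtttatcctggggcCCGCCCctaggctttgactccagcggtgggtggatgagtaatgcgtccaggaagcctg

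The GC box stood in 22 of the 27 member windows (81.5%), against 35.7% of all 32851 windows and 46.2% of the 21263 windows of protein-coding genes. Lama5 held 4 matches and 72.7% G and C, Adamts1 held 3 matches and a TATA box, and Timp2 held 1 match. Mmp13, a collagenase gene, held none and was 43.7% G and C, with an AP-1 match, a TATA box and a RUNX match. The AP-1 motif stood in 4 member windows (14.8%; Ecm1, Mmp12, Mmp13 and Plaur), against 7.81% of all windows, and the TATA box in 5 (18.5%; Adamts1, Ecm1, Mmp8, Mmp12 and Mmp13), against 13.6%. The PU.1 core (GAGGAAG), the site of the myeloid factor PU.1, stood in 5 member windows (18.5%) against 13.6%, and the RUNX motif in 3 (11.1%) against 16.8%. The CRE (TGACGTCA) and the E-box of the MiT/TFE factors (CACGTG) were in none of the 27 windows, against 1.79% and 7.15% of all windows. A match describes letters in a window and does not show that a factor binds there.

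Across the 36 loci no group mean was highest in MG, while 21 were lowest there. LL-MG had the highest mean at 14 loci, LL-MDM at 12 and MDM at 10. The lowest mean was in LL-MG for 4 loci (Emilin2, Fn1, Mmp8 and Nid1), in LL-MDM for Hspg2 and in MDM for 10. The levels of single libraries are shown for all tested loci.

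**Figure D1:**
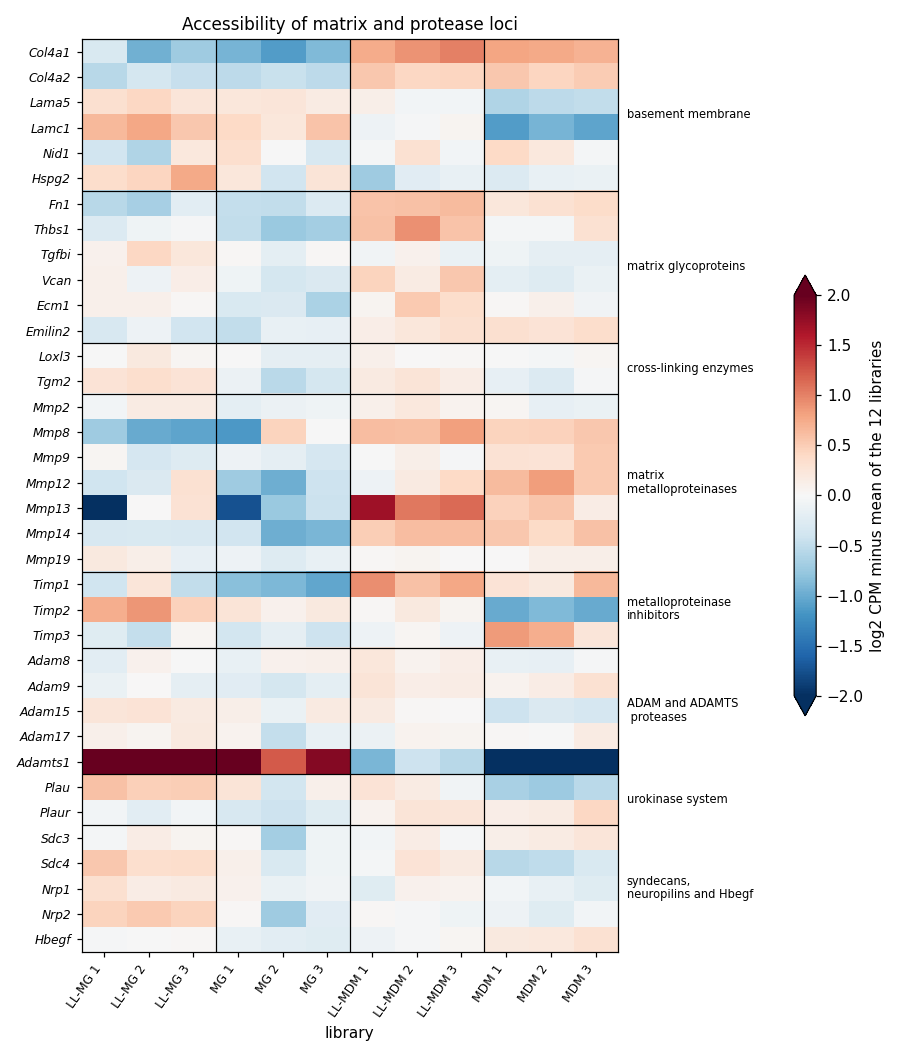
Locus accessibility of the 36 tested members (rows, by role) in each of the 12 libraries (columns), as log2 CPM minus the mean of the 12 libraries; the colour scale ends at 2 log2 units either way. Adamts1, Lamc1 and Timp2 are high in the microglia libraries and low in MDM, and Col4a1, Mmp14 and Timp1 are high in the MDM and LL-MDM libraries.

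Between microglia and MDM without lipid load, more of the matrix and protease loci were lower in MG than were higher. Of the 36 tested, 7 were higher in MG and 17 were lower at an adjusted p under 0.05 (edgeR), 19.4% and 47.2% of them, against a background of 19.8% higher and 21.2% lower among all loci. With libraries thinned to the smallest total 11 were lower. The median log2 fold change of the members was -0.25, beside -0.00 over all loci. The members were chosen with earlier results of these data known, so their shares beside a background, here and below, are descriptive only. With lipid load, LL-MG against LL-MDM gave 7 higher and 11 lower members, against a background of 12% higher and 8.31% lower, with a median of -0.10 beside -0.01. In 10 loci microglia were lower in both comparisons (Col4a1, Col4a2, Fn1, Thbs1, Emilin2, Mmp13, Mmp14, Timp1, Adam9 and Plaur). In 5 they were higher in both (Adamts1, Lama5, Lamc1, Timp2 and Plau), and in 0 did the calls point opposite ways. The same overlaps over all loci were not counted.

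**Figure D2:**
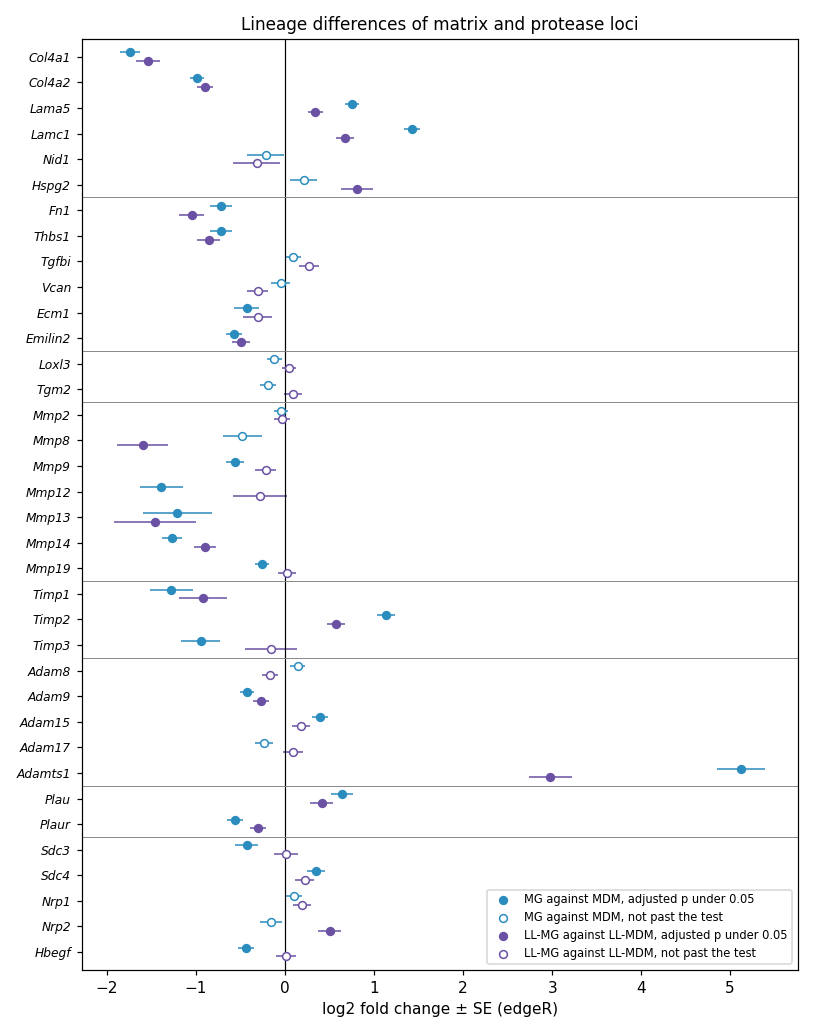
Log2 fold change ± SE of each tested locus in MG against MDM (blue) and LL-MG against LL-MDM (purple), with filled points past the test and open points not. Adamts1 lies far to the right at 5.12 and 2.98, and the Col4a1, Mmp13 and Mmp14 points lie to the left in both comparisons.

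Among basement membrane genes, the collagen chains and the laminin chains went opposite ways between lineages. Col4a1 encodes a chain of type IV collagen, and its locus lies on chromosome 8 from 11198423 to 11312889. It had 21.4, 18.8 and 22.1 CPM in MG, against 70.6, 68.8 and 66.1 CPM in MDM. With lipid load it had 32.8, 21.0 and 24.9 CPM in LL-MG, against 68.1, 75.5 and 81.9 CPM in LL-MDM. Every microglia library lay below every MDM library. The log2 fold change was -1.74 ± 0.11 (SE; adjusted p = 1.31e-10) in MG against MDM and -1.54 ± 0.13 (adjusted p = 6.01e-08) in LL-MG against LL-MDM. Col4a2, which encodes the partner chain and starts head to head with Col4a1, was lower by the same test, at -0.99 ± 0.08 and -0.90 ± 0.09. It averaged 78.4 ± 2.41 CPM in MG against 156 ± 6.66 CPM in MDM (SD, n = 3 each), and 81.1 ± 5.53 CPM in LL-MG against 153 ± 8.50 CPM in LL-MDM; 44.5% of its counts are shared with Col4a1 and Rab20.

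Lamc1, the gamma 1 chain of most laminins, had 100, 88.7 and 112 CPM in MG, against 34.7, 39.6 and 36.4 CPM in MDM. Under lipid load it had 119, 129 and 109.8 CPM in LL-MG, against 70.5, 74.7 and 78.1 CPM in LL-MDM. The microglia libraries were above the MDM libraries in both states, by 1.43 ± 0.09 log2 units (adjusted p = 1.31e-10) without lipid load and 0.67 ± 0.10 (adjusted p = 8.04e-05) with it. Lama5, the laminin alpha 5 chain, was higher by 0.75 ± 0.08 and 0.34 ± 0.08, with 108 ± 2.92 CPM in MG against 64.3 ± 2.47 CPM in MDM; 75.6% of its counts are shared with Adrm1. Without the shared regions Lama5 was higher by 2.44 and 1.13, and with the gene span alone by 2.48 and 1.07. Hspg2, which encodes perlecan, did not pass without lipid load (0.21 ± 0.15) and passed with it, at 0.81 ± 0.18 (adjusted p = 0.00265). Without MG 2 it passed in MG against MDM too (0.43, adjusted p = 0.0107), as it did with libraries thinned to the smallest total (0.83, adjusted p = 0.0126). Hspg2 had 42.4 ± 6.73 CPM in LL-MG against 23.2 ± 4.56 CPM in LL-MDM. Nid1, the linker nidogen 1, passed in neither comparison (-0.22 ± 0.21 and -0.32 ± 0.26). Endothelial markers, 6 of 8 with a region (Cldn5 and Emcn had none), summed to 304 to 321 CPM in LL-MG, 247 to 310.4 in MG, 260.0 to 288 in LL-MDM and 314 to 346 in MDM. Pericyte and fibroblast markers, 6 of 8 with a region (Rgs5 and Lum had none), summed to 86.8 to 94.6, 93.2 to 106, 95.2 to 117 and 98.7 to 102 CPM in LL-MG, MG, LL-MDM and MDM. Their part in the collagen and laminin differences was not tested.

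Of the 6 matrix glycoprotein loci, 4 were lower in MG than in MDM, 3 were lower in LL-MG than in LL-MDM, and none was higher in either. Fn1, fibronectin, had 19.7, 19.5 and 22.7 CPM in MG against 32.4, 34.0 and 35.5 CPM in MDM, and 18.7, 17.4 and 23.8 CPM in LL-MG against 41.0, 41.5 and 42.5 CPM in LL-MDM. Thbs1, thrombospondin 1, which can activate latent TGF-beta, had 33.7, 28.4 and 29.6 CPM in MG against 46.2, 46.3 and 58.6 CPM in MDM. Within each lipid state the lineages did not overlap at either locus. Fn1 was lower by -0.72 ± 0.12 (adjusted p = 6.31e-05) without lipid load and -1.05 ± 0.14 (adjusted p = 2.4e-05) with it, and Thbs1 by -0.72 ± 0.12 and -0.86 ± 0.13. Emilin2, an elastin-associated glycoprotein, was lower by -0.57 ± 0.09 and -0.50 ± 0.10. Ecm1 was lower in MG (-0.43 ± 0.14, adjusted p = 0.0185) and did not pass under lipid load (-0.31 ± 0.16), with 81.5% of its counts shared with Tars2. Tgfbi, an integrin-binding protein induced by TGF-beta, and the proteoglycan versican (Vcan) passed in neither comparison. Tgfbi had fold changes of 0.09 ± 0.09 and 0.27 ± 0.11, and Vcan -0.05 ± 0.11 and -0.31 ± 0.12. The cross-linking enzymes Loxl3 and Tgm2 passed in neither, with log2 fold changes between -0.19 and 0.09. Of the Loxl3 counts 86.2% are shared with neighbouring genes.

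None of the 7 matrix metalloproteinase loci was higher in microglia: 5 were lower in MG than in MDM (Mmp9, Mmp12, Mmp13, Mmp14 and Mmp19) and 3 were lower in LL-MG than in LL-MDM (Mmp8, Mmp13 and Mmp14). Mmp14, a membrane protease that activates pro-MMP2, had 63.9, 42.5 and 44.6 CPM in MG against 121, 109 and 125 CPM in MDM. With lipid load it had 66.8, 68.1 and 67.0 CPM in LL-MG against 118, 128 and 129 CPM in LL-MDM. The lineages did not overlap, and the log2 fold changes were -1.27 ± 0.11 (adjusted p = 7.08e-09) and -0.90 ± 0.12 (adjusted p = 1.38e-05); 50.8% of the counts are shared with Mrpl52. Mmp12, the macrophage elastase, had 3.74, 3.11 and 4.62 CPM in MG against 9.47, 11.0 and 8.80 CPM in MDM, a difference of -1.39 ± 0.24 (adjusted p = 9.12e-05). Under lipid load its libraries overlapped, at 4.68, 5.03 and 7.60 CPM in LL-MG against 5.74, 6.93 and 8.12 CPM in LL-MDM (-0.28 ± 0.30). Mmp13 was lower by -1.21 ± 0.39 and -1.46 ± 0.46, at levels of 1.24 ± 0.511 CPM in MG against 2.98 ± 0.422 CPM in MDM and 1.82 ± 1.23 CPM in LL-MG against 5.70 ± 1.47 CPM in LL-MDM. Mmp9, a gelatinase, was lower by -0.56 ± 0.10 (adjusted p = 9.34e-05) in MG and did not pass under lipid load (-0.22 ± 0.12). Mmp19 was lower in MG by -0.26 ± 0.08, with 92.8% of its counts shared. Mmp2, the other gelatinase, passed in neither comparison (-0.05 ± 0.08 and -0.04 ± 0.09), with 71.4% of its counts shared with Lpcat2.

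Mmp8, known as the neutrophil collagenase, had 15.7, 12.8 and 12.4 CPM in LL-MG against 39.4, 39.1 and 45.3 CPM in LL-MDM, a log2 fold change of -1.60 ± 0.29 (adjusted p = 0.00158). In MG it had 11.6, 34.8 and 25.6 CPM against 34.8, 35.3 and 37.1 CPM in MDM, which missed the threshold (-0.48 ± 0.22, adjusted p = 0.101). The MG value rests on single libraries: it was -0.84 (adjusted p = 0.000101) without MG 2 and -1.62 (adjusted p = 8.31e-09) without MG 2 and MG 3, and it also passed with the gene span alone (-1.07) and with regions of no other gene (-0.58). The MG values are split: MG 1 lay at the LL-MG level and MG 2 close to MDM. Of its counts 70.0% are shared with Mmp27. Neutrophil markers, 6 of 8 with a region (Camp and Ngp had none), summed to 73.6 to 76 CPM in LL-MG, 73.8 to 117 in MG, 121 to 129 in LL-MDM and 134 to 145 in MDM, so that this list is also lower in microglia. Their part in the Mmp8 and Mmp9 differences was not tested.

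The 3 TIMP loci differed from each other. Timp2, which inhibits metalloproteinases and also takes part with Mmp14 in the activation of pro-MMP2, had 78.9, 70.1 and 75.7 CPM in MG against 32.7, 35.9 and 32.8 CPM in MDM. With lipid load it had 109, 121 and 91.2 CPM in LL-MG against 67.3, 75.6 and 68.7 CPM in LL-MDM. Microglia lay above MDM in both states, by 1.13 ± 0.10 (adjusted p = 6.17e-09) and 0.57 ± 0.10 (adjusted p = 0.000429). Timp1, a secreted inhibitor, was lower by -1.28 ± 0.24 (adjusted p = 0.000206) and -0.92 ± 0.27 (adjusted p = 0.0193), at 3.86 ± 0.259 CPM in MG against 9.53 ± 1.69 CPM in MDM. Timp3, which is bound to the matrix, was lower in MG by -0.95 ± 0.22 (adjusted p = 0.00127) and did not pass under lipid load (-0.16 ± 0.29). Timp1 lies within Syn1 and Timp3 within Syn3, so 100% of the counts of each are shared with that gene and the sources used here cannot assign them.

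Adamts1 showed the largest difference of any member in both lineage comparisons. It encodes a secreted protease that cuts versican and aggrecan, and its locus on chromosome 16 from 85793827 to 85803113 shares no region with another gene. It had 70.0, 39.9 and 61.2 CPM in MG against 0.761, 2.05 and 2.04 CPM in MDM, a log2 fold change of 5.12 ± 0.27 (34.8-fold, adjusted p = 1.57e-09). Under lipid load it had 97.0, 86.8 and 98.4 CPM in LL-MG against 9.02, 12.8 and 11.6 CPM in LL-MDM, a log2 fold change of 2.98 ± 0.24 (7.91-fold, adjusted p = 1.37e-06). The 4 groups do not overlap at this locus and stand in the order LL-MG, MG, LL-MDM, MDM. Of the ADAM loci, Adam9, a membrane sheddase, was lower by -0.43 ± 0.08 and -0.27 ± 0.09, with 81.9% of its counts shared with Tm2d2. Adam15 was higher in MG (0.39 ± 0.09, adjusted p = 0.000908) and did not pass under lipid load (0.18 ± 0.10), with 100% of its counts in regions shared with neighbours. Adam8 and Adam17, the TNF-releasing protease, passed in neither comparison. Adam8 had 0.14 ± 0.08 and -0.17 ± 0.09, and Adam17 -0.24 ± 0.10 and 0.09 ± 0.11. Of the Adam8 counts 75.6% are shared. With regions of no other gene Adam8 was lower in LL-MG than in LL-MDM (-0.59, adjusted p = 0.0136).

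The urokinase locus was higher and the locus of its receptor lower in MG than in MDM. Plau, which encodes the protease that activates plasminogen, had 113, 73.6 and 101 CPM in MG against 60.0, 56.9 and 65.2 CPM in MDM, and was higher by 0.64 ± 0.12 (adjusted p = 0.000322). Plaur, the receptor, had 112, 106 and 119 CPM in MG against 154, 157 and 187 CPM in MDM, and was lower by -0.56 ± 0.09 (adjusted p = 2.08e-05). Neither pair of groups overlapped. Under lipid load the differences were 0.41 ± 0.13 for Plau and -0.30 ± 0.09 for Plaur. The Plaur difference rests on the flanks: with the gene span alone it was -0.16 (adjusted p = 0.188) in MG against MDM and -0.04 (adjusted p = 0.852) in LL-MG against LL-MDM. Among surface proteins, Sdc4, a syndecan of focal adhesions, was higher in MG by 0.35 ± 0.10, while Sdc3 and Hbegf, a shed EGF receptor ligand, were lower by -0.43 ± 0.13 and -0.44 ± 0.09. None of these 3 passed under lipid load, where the fold changes were 0.22 ± 0.11, 0.01 ± 0.14 and 0.01 ± 0.11. Nrp2, a co-receptor of semaphorins and VEGF-C, did not pass in MG against MDM (-0.16 ± 0.12) and was higher in LL-MG than in LL-MDM (0.50 ± 0.13, adjusted p = 0.0124), and Nrp1 passed in neither (0.10 ± 0.09 and 0.19 ± 0.10).

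In MG against MDM, 16 of the 24 calls held under every alternative that gave a value. Leaving out MG 3 or MDM 2 ended the Ecm1 call, MDM 2 Mmp13, MG 2 or MDM 2 Mmp19, MG 2 Sdc3 and MDM 1 Sdc4, with adjusted p of up to 0.122, 0.0634, 0.0644, 0.0597 and 0.0561. Without MG 2 and MG 3 the calls of Ecm1, Mmp13 (-2.15), Mmp19 and Sdc3 (-0.15) ended and Sdc4 was at 0.58, and with the gene span alone that of Plaur did. In LL-MG against LL-MDM, 11 of 18 held; leaving out LL-MDM 3 ended the calls of Mmp13, Timp1, Adam9, Plau, Plaur and Nrp2, and other single LL-MG or LL-MDM libraries ended all of these but Nrp2, with adjusted p of up to 0.136, 0.0985, 0.112, 0.145, 0.112 and 0.0533.

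Of the 36 loci, 11 were higher and 2 lower in LL-MDM than in MDM and 23 did not pass, against a background of 11.7% higher and 12.2% lower. The 11 are 30.6% of the members, and the median log2 fold change was 0.16 beside -0.00 over all loci. They were Lama5, Lamc1, Thbs1, Vcan, Tgm2, Timp2, Adam8, Adam15, Adamts1, Plau and Sdc4, and 7 of them (Lama5, Lamc1, Timp2, Adam15, Adamts1, Plau and Sdc4) were also higher in MG than in MDM. These 2 comparisons share the MDM libraries, and the same overlap over all loci was not counted.

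Adamts1 had 9.02, 12.8 and 11.6 CPM in LL-MDM against 0.761, 2.05 and 2.04 CPM in MDM, a log2 fold change of 2.90 ± 0.34 (adjusted p = 4.7e-05). Timp2 had 67.3, 75.6 and 68.7 CPM in LL-MDM against 32.7, 35.9 and 32.8 CPM in MDM (1.08 ± 0.10, adjusted p = 2.8e-07). Lamc1 had 70.5, 74.7 and 78.1 CPM in LL-MDM against 34.7, 39.6 and 36.4 CPM in MDM (1.02 ± 0.10, adjusted p = 4.61e-07). At all 3 loci every LL-MDM library lay above every MDM library. Plau was higher by 0.76 ± 0.12, Thbs1 by 0.67 ± 0.11, Sdc4 by 0.65 ± 0.11 and Lama5 by 0.53 ± 0.08. Thbs1 had 71.4, 89.6 and 70.6 CPM in LL-MDM against 46.2, 46.3 and 58.6 CPM in MDM, and is the only member higher with lipid load in MDM that was lower in MG than in MDM. Vcan was higher by 0.57 ± 0.11 (adjusted p = 0.000629) and Tgm2, a transglutaminase that cross-links matrix proteins, by 0.36 ± 0.09 (adjusted p = 0.00801). The 2 lower loci were Timp3 (-0.68 ± 0.23, adjusted p = 0.0318) and Mmp9 (-0.31 ± 0.10, adjusted p = 0.033), with 55.4 ± 2.73 CPM of Mmp9 in LL-MDM against 69.7 ± 6.85 CPM in MDM. The type IV collagen, fibronectin and Mmp14 loci did not pass, at 0.15 ± 0.10 (Col4a1), -0.04 ± 0.07 (Col4a2), 0.30 ± 0.12 (Fn1) and 0.09 ± 0.10 (Mmp14). Mmp2 did not pass as a whole locus (0.22 ± 0.08, adjusted p = 0.0636). With regions of no other gene it was higher by 0.67 (adjusted p = 0.000692), and with the gene span alone by 0.55 (adjusted p = 0.000753).

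Some microglia markers were also higher in LL-MDM. Sall1 averaged 8.95 CPM in LL-MDM against 0.775 CPM in MDM, which is 15.6% of the distance in CPM from the MDM mean to the MG mean of 53.1, and Adamts1 stood at 17.2% of its own distance. Other markers did not share that position: Tmem119, a microglia marker, stood at 305% and Itga4 at 49.6%. Of the other members higher in LL-MDM and in MG, Lamc1 stood at 59.1%, Lama5 at 67.3%, Timp2 at 89.4%, Adam15 at 104%, Plau at 121% and Sdc4 at 180%. The far end of these distances is MG, which has no lipid load. All of these members had their highest mean in LL-MG (107 CPM for Timp2, 89.4 for Adam15, 136 for Plau and 86.1 for Sdc4). Measured to LL-MG, their positions would be lower. Of the 8 microglia markers 4 were higher in LL-MDM (Tmem119, Sall1, Olfml3 and Fcrls) and 4 did not pass, among them P2ry12 (-0.03), Siglech (-0.16) and Cx3cr1 (-0.05), and of the 7 monocyte-derived markers tested 6 were lower. The part of microglia among the sorted LL-MDM cells was not tested. Of the 13 calls 8 held under every alternative that gave a value. Single libraries left out ended those of Timp3 (each LL-MDM library, MDM 1 or MDM 2; adjusted p of up to 0.15), Mmp9 (each LL-MDM library or MDM 3; up to 0.139), Adam8 (all but MDM 3 of these groups, or MG 3; up to 0.135) and Tgm2 (LL-MDM 2 or MDM 2; up to 0.0668). DESeq2 called neither Timp3 nor Mmp9.

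**Figure D3:**
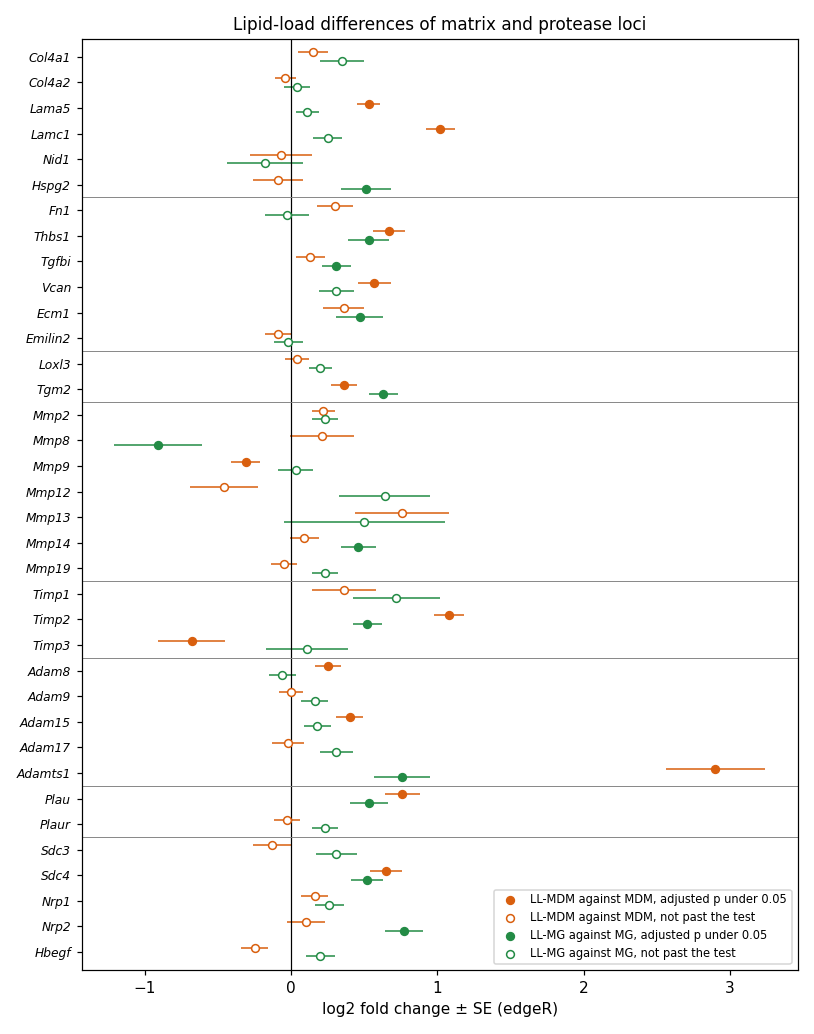
Log2 fold change ± SE of each tested locus in LL-MDM against MDM (orange) and LL-MG against MG (green), with filled points past the test and open points not. Adamts1, Timp2 and Lamc1 are farthest to the right in LL-MDM, and the LL-MG points lie between -0.91 (Mmp8) and 0.77 (Nrp2).

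Lipid-laden microglia had 11 matrix and protease loci higher and 1 lower than MG, against a background of 10.3% higher and 7.98% lower, with a median of 0.28 beside 0.03 over all loci. The 11 were Hspg2, Thbs1, Tgfbi, Ecm1, Tgm2, Mmp14, Timp2, Adamts1, Plau, Sdc4 and Nrp2, and the lower locus was Mmp8. Tgm2 had 195, 204 and 196 CPM in LL-MG against 149, 111 and 127 CPM in MG, a log2 fold change of 0.63 ± 0.10 (adjusted p = 0.00171). Nrp2 had 230.3, 243 and 229.7 CPM in LL-MG against 172, 103 and 145 CPM in MG (0.77 ± 0.13, adjusted p = 0.00396). Every LL-MG library was above every MG library at both, and the MG libraries were spread widely. Timp2 was higher by 0.52 ± 0.10 (adjusted p = 0.00446), Sdc4 by 0.52 ± 0.11 (adjusted p = 0.00652), Plau by 0.53 ± 0.13, Thbs1 by 0.53 ± 0.14, Mmp14 by 0.46 ± 0.12 and Adamts1 by 0.76 ± 0.19. Hspg2 (0.51 ± 0.17), Ecm1 (0.47 ± 0.16) and Tgfbi (0.31 ± 0.10) passed with adjusted p between 0.0418 and 0.049. Mmp8 was lower by -0.91 ± 0.30 (adjusted p = 0.0486), with overlapping libraries and with MG 1 (11.6 CPM) below each LL-MG library.

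These microglial calls depend on which libraries enter the fit. In a fit of the LL-MG and MG libraries alone edgeR called 0 of the 35 members tested there and 0 of 14886 loci, with 13 members higher and 1 lower at an unadjusted p under 0.05, and none of the 12 calls held under every alternative. The folds there were close to those above, at 0.60 for Tgm2 and 0.73 for Nrp2. Without MG 2 and MG 3 it called 0 members, with 9 higher at an unadjusted p under 0.05, and the Mmp8 value turned to 0.23. The folds were then also smaller, at 0.41 for Tgm2, 0.45 for Nrp2, 0.43 for Adamts1, 0.30 for Sdc4 and for Hspg2, 0.26 for Plau and 0.07 for Mmp14. Leaving out 1 library at a time gave 5 to 18 higher members, with 18 without MG 1, 5 without LL-MG 1, 6 without LL-MG 2 or LL-MG 3 and 7 without MG 2. The counts over all loci moved as well, with 3190 of 15838 higher without MG 1, 558 of 15831 without LL-MG 1 and 587 of 15471 without MG 2. The summed microglia markers ranged from 380.4 to 616 CPM within MG, and the pan-macrophage markers from 730.3 to 1089 CPM in MG beside 1034 to 1206 CPM in LL-MG; their part in these differences was not tested. Across all loci 1606 were higher and 1241 lower in LL-MG with TMM scaling, against 1299 higher and 1620 lower with total counts alone, which left 8 higher members and 1 lower.

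**Figure D4:**
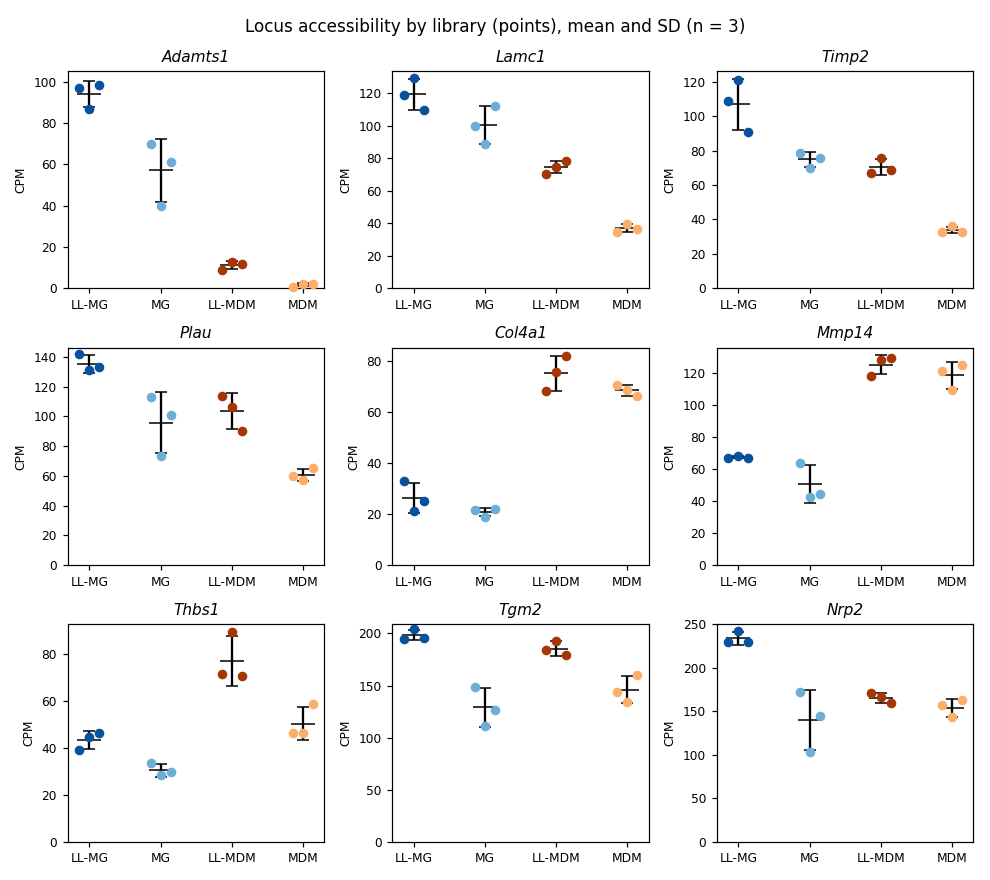
CPM per library (points) with the group mean and SD (n = 3) for 9 loci in LL-MG, MG, LL-MDM and MDM. The means of Adamts1, Lamc1 and Timp2 fall in the order of the groups, Col4a1 and Mmp14 separate the lineages, and the MG points of Plau, Tgm2 and Nrp2 are spread more widely than the LL-MG points.

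With lipid load, 6 loci were called higher in both lineages (Adamts1, Plau, Sdc4, Tgm2, Thbs1 and Timp2). The share of all loci called higher in both was not computed. None of the 12 calls of LL-MG against MG, on which this overlap rests, held under every alternative. Whether lipid load made a different difference in the lineages was tested as an interaction (microglia minus MDM): 2 members were higher and 4 lower, against a background of 5.94% higher and 2.78% lower. The lower ones, whose log2 difference with lipid load was smaller in microglia, were Lamc1 (-0.77 ± 0.14, adjusted p = 0.00174), Adamts1 (-2.14 ± 0.39, adjusted p = 0.00486), Timp2 (-0.56 ± 0.14, adjusted p = 0.0172) and Lama5 (-0.41 ± 0.11, adjusted p = 0.0256). All 4 were already higher in MG than in MDM. In CPM the Adamts1 mean rose more in microglia, from 57.0 in MG to 94.1 in LL-MG, than in the other lineage, from 1.62 in MDM to 11.1 in LL-MDM. Nrp2 (0.66 ± 0.18, adjusted p = 0.0326) and Hbegf (0.45 ± 0.14, adjusted p = 0.0486) were higher. Nrp2 had a lipid-load difference of 0.77 ± 0.13 in microglia beside 0.10 ± 0.13 in MDM, and Hbegf of 0.20 ± 0.10 beside -0.25 ± 0.09. No other member, among them Thbs1 (-0.14 ± 0.18), Plau (-0.23 ± 0.18) and Sdc4 (-0.13 ± 0.15), had an interaction past the test, which does not show that the lineages respond alike. The same test sets the lineage difference with lipid load against that without it, and Hspg2 (0.60 ± 0.24), Mmp8 (-1.12 ± 0.37), Mmp12 (1.11 ± 0.39) and Timp3 (0.79 ± 0.36), each called in a single lineage comparison, did not pass it. The Lama5 interaction was -1.42 with the gene span alone and -1.31 with regions of no other gene. The Nrp2 call held in 10 of 21 alternatives and the Hbegf call in 1 of 21.

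Single regions showed where in each locus the accessibility differed. The member loci hold 304 distinct regions, of which 247 were tested, with a median width of 179 bp over all regions of the data set. In MG against MDM 63 were higher and 69 lower (background 26.8% higher and 24.9% lower), and in LL-MG against LL-MDM 24 were higher and 49 lower (background 10.3% higher and 11.2% lower). In LL-MDM against MDM 72 were higher and 20 lower (background 15.4% higher and 14.1% lower), and in LL-MG against MG 16 were higher and 10 lower (background 4.21% higher and 8.01% lower). Of the 20 tested regions at a member's own promoter, 9 were higher and 0 lower in LL-MDM against MDM (edgeR). The share over promoter regions of all genes was not computed, and the backgrounds above cover regions of every kind. For the 12 members without a promoter window, regions at the start are counted as inside the gene or flanking. The gene table gives spans without exons, so regions inside a gene are placed by their distance from its start.

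At Adamts1 all 3 regions were higher in MG than in MDM, in LL-MG than in LL-MDM and in LL-MDM than in MDM. The promoter region (chr16:85802999-85803296), which covers 233 bases of the promoter window printed for this gene, had 29.7, 16.3 and 22.7 CPM in MG against 0.219, 0.326 and 0 CPM in MDM. It had 40.7, 29.6 and 31.9 CPM in LL-MG against 2.66, 3.76 and 2.74 CPM in LL-MDM. The groups were apart, with log2 fold changes of 6.44 ± 0.34 (adjusted p = 4.75e-16) and 3.35 ± 0.29 (adjusted p = 6.45e-10), and 3.70 ± 0.48 in LL-MDM against MDM. At Lamc1 all 10 tested regions were higher in MG and 7 were higher in LL-MDM than in MDM. The widest (chr1:153332496-153333326) had 43.0, 40.3 and 50.5 CPM in MG against 12.6, 14.5 and 11.5 CPM in MDM (1.77 ± 0.15). Plau had 8 of 9 tested regions higher in MG and 7 higher in LL-MDM, both against MDM.

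At Timp2, 8 of 10 tested regions were higher in MG and 7 in LL-MDM than in MDM. The promoter region (chr11:118355143-118355534) averaged 26.2 CPM in MG, 21.3 in LL-MDM and 11.7 in MDM, with 1.18 ± 0.16 in MG against MDM and 0.84 ± 0.17 in LL-MDM against MDM. A region 42997 bp into the gene (chr11:118312181-118312647) had 14.2, 16.4 and 14.4 CPM in LL-MDM against 3.58, 3.91 and 4.61 CPM in MDM (1.95 ± 0.21, adjusted p = 3.47e-08). The Lama5 locus had all 5 tested regions higher in MG, the most significant 22865 bp inside the gene (chr2:180202818-180203171; 2.75 ± 0.22), with 21.9, 25.9 and 17.6 CPM in MG against 3.21, 3.86 and 2.05 CPM in MDM. Its promoter region averaged 8.69 CPM in MG against 1.32 CPM in MDM (2.86 ± 0.32).

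**Figure D5:**
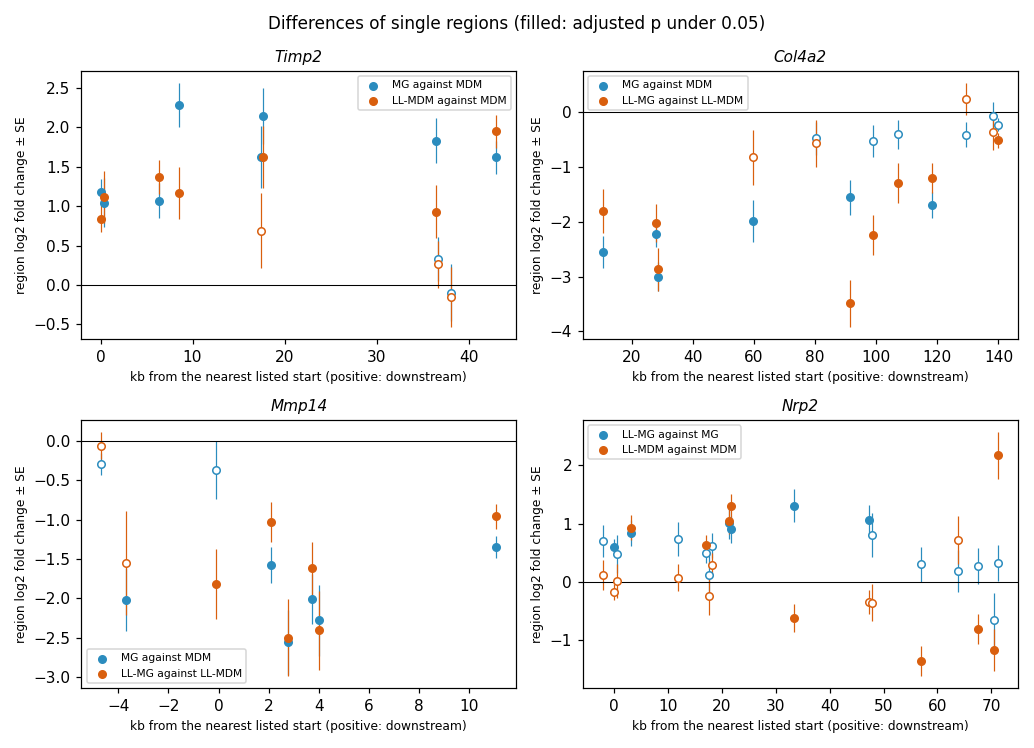
Log2 fold change ± SE of each tested region against its distance from the nearest listed transcription start in kb, at Timp2 (MG against MDM, LL-MDM against MDM), Col4a2 and Mmp14 (both lineage comparisons) and Nrp2 (LL-MG against MG, LL-MDM against MDM); filled points passed the test. Timp2 points are mostly above 0, Col4a2 and Mmp14 points mostly below 0, and Nrp2 points lie on both sides in LL-MDM.

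At Col4a1, Col4a2 and Mmp14 no tested region was higher in either lineage comparison (edgeR). All 8 tested Col4a1 regions were lower in MG, 6 of the 12 Col4a2 regions were, and 6 of 8 at Mmp14. A Col4a2 region 28537 bp from the start (chr8:11341203-11341481) had 1.48, 1.54 and 1.95 CPM in MG against 14.8, 12.6 and 13.0 CPM in MDM (-3.00 ± 0.27). Another (chr8:11403869-11404281) had 0.905, 0.940 and 1.09 CPM in LL-MG against 15.1, 10.6 and 10.3 CPM in LL-MDM (-3.49 ± 0.43). The Mmp14 promoter region (chr14:54431474-54431542) passed the test with lipid load and not without it. In the interaction test of single regions, 0 of the 8 tested Mmp14 regions were higher and 0 lower, so this contrast did not itself pass. The promoter region averaged 2.05 CPM in LL-MG against 6.56 in LL-MDM (-1.82 ± 0.45) and 2.67 CPM in MG against 3.25 in MDM (-0.37 ± 0.37). It was higher in LL-MDM than in MDM (1.20 ± 0.31). At Mmp13 the promoter region was the only tested one, and it was lower by -1.85 ± 0.52 and -1.95 ± 0.58. At Mmp9 a flanking region (chr2:164935914-164936336) carried the largest difference, with 2.22, 1.89 and 1.71 CPM in MG against 16.6, 14.3 and 16.8 CPM in MDM (-3.04 ± 0.27). At Emilin2 a region 51093 bp inside the gene had 0, 1.88 and 1.81 CPM in LL-MG against 8.86, 9.46 and 12.7 CPM in LL-MDM (-3.02 ± 0.45).

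Nrp2 held regions that moved in different directions. In LL-MG against MG 6 of 18 were higher and 0 lower (edgeR), among them the promoter region (0.59 ± 0.14) and a region 33376 bp into the gene (chr1:62736549-62736837), with 11.3, 10.8 and 10.5 CPM in LL-MG against 5.93, 3.43 and 4.39 CPM in MG (1.31 ± 0.28). In LL-MDM against MDM 5 were higher and 4 lower, and that same region was lower (-0.62 ± 0.24), with 6.20, 7.51 and 5.14 CPM in LL-MDM against 10.2, 8.58 and 12.1 CPM in MDM. The locus sum of Nrp2 in MDM (0.10 ± 0.13) is therefore a balance of regions going opposite ways. Tgm2 had 6 of 10 regions higher in LL-MDM and 4 higher in LL-MG, with 0 lower in either (edgeR). The alternatives were fitted for loci alone, so no region call was tried without single libraries. At the locus level none of the 12 calls of LL-MG against MG held under every alternative. A flanking region before Plaur (chr7:24457703-24458039) had 4.98, 6.11 and 8.71 CPM in LL-MG against 31.0, 25.0 and 29.4 CPM in LL-MDM (-2.04 ± 0.26), with 9.64, 19.2 and 11.2 CPM in MG. At Mmp19 a region inside the gene (chr10:128795150-128795388) had 0, 1.11 and 1.03 CPM in LL-MDM against 6.06, 9.07 and 7.69 CPM in MDM (-2.96 ± 0.43), though the locus as a whole did not pass (-0.05 ± 0.09). An Adam15 region (chr3:89347281-89347458) had 10.6, 11.1 and 8.90 CPM in LL-MDM against 3.36, 3.37 and 1.71 CPM in MDM (1.77 ± 0.25), and a Sdc4 region 1863 bp from the start had 13.3, 24.2 and 17.8 CPM in MG against 4.46, 4.67 and 3.59 CPM in MDM (adjusted p = 1.32e-09).

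Other matrix and protease genes were a list of 68, of which 52 had a region and 46 were tested. In MG against MDM 11 were higher and 14 lower (23.9% and 30.4%, background over all loci 19.8% and 21.2%). In LL-MG against LL-MDM 11 were higher and 8 lower (23.9% and 17.4%, background 12% and 8.31%). In LL-MDM against MDM 11 were higher and 5 lower (23.9% and 10.9%, background 11.7% and 12.2%). In LL-MG against MG 7 were higher and 3 lower (15.2% and 6.52%, background 10.3% and 7.98%). Their median in MG against MDM was 0.12, beside -0.25 for the members. Of the 6 tested collagen loci other than type IV, 2 were higher and 1 lower in MG. Col6a3, a chain of type VI collagen, averaged 9.85 ± 3.32 CPM in MG against 0.695 ± 0.330 CPM in MDM (log2 fold change 3.56, adjusted p = 3.73e-08), and Col5a1 was higher by 1.21. Among metalloproteinases, Mmp15 was higher by 2.96 in MG (2.99 CPM, against 0.298 CPM in MDM) and by 1.92 in LL-MDM against MDM, and Adam10 was higher by 0.18 in MG. Adam19 was lower at -1.40 in MG and -1.13 in LL-MG, and Mmp25 was lower at -1.36 in MG and at -1.21 in LL-MDM against MDM.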

How the data were processed

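The deposited file holds whole-number ATAC-seq counts of 12 libraries in 117835 regions of mm10, as deposited and not normalized by the authors. The tools named per the submitters' processing notes are deepTools 3.5.1, Picard 2.12.0, SAMtools 1.10 and BWA 0.7.17-r1188. How peaks were called, duplicates handled and reads shifted is not given in the sources used here. PCR copies may inflate counts, and the errors given cover the spread between libraries. Groups follow the library names, and 0 columns had no library. Counts were summed per protein-coding gene of the RefSeq GRCm38.p6 table (span and 5 kb either side), so a region near several genes counts for each. The test for loci and single regions was that of edgeR 4.0.16, run in R 4.3.3 (filterByExpr, TMM, robust quasi-likelihood test on all 4 groups), with Benjamini-Hochberg adjustment over 15552 loci or all tested regions and a threshold of 0.05. CPM scales each library to a common total of counts over tested loci (edgeR's cpm, after TMM), and SE is derived from the F statistic. The method was tested on simulated data. Alternatives, with DESeq2 1.42.0 among them, are given in the closing section.

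Every member is named by its role, with full statistics for up to 4 called members a role by p. Single regions were named for up to 6 per comparison by p, 1 per locus, among those called, with no overlap between groups and a change of at least 1 log2 unit; own-promoter regions and further values were chosen after their values were seen. The members and gene lists were chosen with earlier results of these data known.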

Additional observations from a re-analysis of the deposited data

Results flagged for a closer look

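The difference with lipid load was itself different between the lineages at 6 loci by edgeR's interaction test, which sets LL-MG against MG beside LL-MDM against MDM. On the log2 scale it was smaller in microglia for Lamc1 (-0.77 ± 0.14, adjusted p = 0.00174), Adamts1 (-2.14 ± 0.39, adjusted p = 0.00486), Timp2 (-0.56 ± 0.14, adjusted p = 0.0172) and Lama5 (-0.41 ± 0.11, adjusted p = 0.0256). For Nrp2 (0.66 ± 0.18, adjusted p = 0.0326) and Hbegf (0.45 ± 0.14, adjusted p = 0.0486) it was larger in microglia. The Lamc1 and Adamts1 calls held in 20 of 21 alternatives each, Timp2 in 18, Lama5 in 17, Nrp2 in 10 and Hbegf in 1. Leaving out LL-MG 3, LL-MDM 2 or MDM 1 ended the Timp2 call, with adjusted p of up to 0.0815 over the alternatives. Leaving out LL-MG 3, MDM 1 or MDM 2 ended the Lama5 call, with adjusted p of up to 0.0759. Without MG 2 and MG 3 the Lama5 (-0.43, adjusted p = 0.0581), Nrp2 (0.34, adjusted p = 0.126) and Hbegf (0.39, adjusted p = 0.275) calls ended, while those of Lamc1, Adamts1 and Timp2 held.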

How the results depend on the processing

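Of 67 called member values, 35 held in every alternative that gave a value: 16 of 24 in MG against MDM, 11 of 18 in LL-MG against LL-MDM, 8 of 13 in LL-MDM against MDM and 0 of 12 in LL-MG against MG. Setting the groups by title gave 0 higher and 0 lower members in both lineage comparisons and in the interaction (edgeR, 0 at an unadjusted p under 0.05). It gave 3 higher and 7 lower in LL-MDM against MDM, and 1 higher and 6 lower in LL-MG against MG. By library name, however, these title comparisons of lipid load set microglia against MDM, and the title comparisons of lineage stay within a lineage. The title counts are therefore no second reading of either difference. Thinning every library to the smallest total gave 11 lower members in MG against MDM, 0 lower in LL-MDM against MDM (2 at an unadjusted p under 0.05), 5 higher and 0 lower in LL-MG against MG, and 0 higher and 2 lower in the interaction; fewer counts are part of its construction. The 2 lower members in LL-MDM against MDM became 0 with DESeq2 and with the gene span alone (2 each at an unadjusted p under 0.05), and 1 with regions of no other gene. In LL-MG against MG, fitting the 2 groups alone or leaving out MG 2 and MG 3 together gave 0 higher and 0 lower, and the span alone or regions of no other gene gave 0 lower. The 2 higher members in the interaction became 1 with RLE size factors, DESeq2, no filter, the span alone, regions of no other gene or total counts without TMM, a setting chosen after seeing the data, and 0 without MG 2 and MG 3. The cause of the changes under settings other than the titles was not tested.

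Leaving out 1 library at a time gave 7 to 12 lower members in LL-MG against LL-MDM, 0 to 3 lower in LL-MDM against MDM, 5 to 18 higher and 0 to 1 lower in LL-MG against MG, and 0 to 7 higher and 2 to 6 lower in the interaction. The values that turned were Mmp19 in LL-MDM against MDM to 0.72 and Ecm1 in LL-MG against MG to -0.10 with regions of no other gene, and Mmp8 in LL-MG against MG to 0.23 without MG 2 and MG 3. The libraries were also grouped into 3 sets of consecutive running numbers, each with 1 library per group. Of 18 pairs within a set 1 had a correlation of deviations over 0.1. Of 12 libraries 2 correlated best with a library of their own set. This covers 1 assumed grouping and cannot show whether the libraries are paired in another way. A replicate block gave 0 lower members in LL-MDM against MDM (3 at an unadjusted p under 0.05), 0 lower in LL-MG against MG and 1 higher in the interaction. The library with the fewest counts, LL-MDM 1, had 1162969.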

Other observations

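Among matrix genes outside the members, Tnr, the neural matrix glycoprotein tenascin-R, had 11.6, 13.0 and 12.4 CPM in MG against 99.0, 88.7 and 80.1 CPM in MDM (log2 fold change -2.84), and 7.24, 11.9 and 11.4 CPM in LL-MG against 53.3, 51.2 and 52.8 CPM in LL-MDM (-2.35). Lama2, a laminin alpha chain, was lower at -1.16 in MG and -2.06 in LL-MG, the opposite side from Lama5 and Lamc1. Cd44, the hyaluronan receptor, was lower at -0.65 and -0.72. Col27a1 had 100.4, 88.2 and 96.4 CPM in LL-MG against 47.9, 36.1 and 53.4 CPM in MG (1.08, adjusted p = 0.000321), and its interaction was 1.16. Itgav, an integrin alpha chain that binds fibronectin and vitronectin, was higher by 0.57 in LL-MG than in MG.

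Serpinb2, an inhibitor of urokinase, had 2.13, 3.20 and 4.49 CPM in LL-MG and 6.12, 27.1 and 15.6 CPM in MG, against 44.3, 42.5 and 42.8 CPM in LL-MDM and 33.9, 34.7 and 32.7 CPM in MDM. As at Mmp8, the MG libraries are split, with MG 1 nearest to LL-MG and MG 2 nearest to MDM. Its log2 fold change was -3.67 in LL-MG against LL-MDM and -2.41 in LL-MG against MG.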
